A study of Mus musculus with 6 samples.

Results

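The genes described here are the Golgi glycosyltransferases of mouse, the enzymes that start, branch, extend and cap the sugar chains of glycoproteins and glycolipids. Their rows were chosen by gene symbol alone, as the members of the Galnt, Gcnt, B3gnt, B3galt, B4galt, Mgat, Fut, St3gal, St6gal, St6galnac and St8sia families, which gave 73 genes of the 24214 in the gene count tables. The RNA-seq libraries came from a KP lung cancer cell line of C57BL/6 mice, a tumour line of the lung grown in RPMI medium with fetal calf serum, whose number opens the names of both groups. The 3 control samples (393P_vector) carried an empty vector and the 3 others (393P_ZEB1) carried a ZEB1 expression vector, and the comparison of the 2 groups asks how transcript levels differ when this epithelial line is made to express the transcription factor ZEB1. The promoter of the vector is not given in the sources used here, and neither the number of clones behind each group nor whether its 3 samples were separate cultures is stated, so the p-values measure the spread between these samples, which may be technical.

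Golgi glycosyltransferases act in sequence. GALNT enzymes attach the first N-acetylgalactosamine of mucin-type O-glycans, GCNT enzymes branch these chains, MGAT enzymes set the number of antennae on N-glycans, B4GALT, B3GALT and B3GNT enzymes lengthen the antennae with galactose and N-acetylglucosamine, and fucosyltransferases and sialyltransferases decorate or cap the ends. ZEB1 is a zinc finger repressor that binds E-box motifs and drives loss of epithelial character, and it and the miR-200 family of microRNAs repress each other.

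The 6 libraries held 54442450 to 79158012 counts in genes, so that 3 counts corresponded to 0.0379 to 0.0551 CPM, the count scaled to the size of the library. Zeb1 itself was at 21.2, 22.0 and 21.4 CPM in the vector samples and at 54.9, 48.9 and 51.3 CPM in the ZEB1 samples, a log2 fold change of 1.26 (SE 0.10, adjusted p = 6.06e-05 in the quasi-likelihood test of edgeR), in which reads of the vector and of the cell's own gene cannot be told apart. Of 8 epithelial markers 7 were lower, Cdh1 and Epcam among them, and all 6 mesenchymal markers were higher. Defining genes of fibroblasts, leukocytes and endothelium were low, with summed levels of 2.53 to 3.45, 1.67 to 2.24 and 2.26 to 2.46 CPM in the vector samples and of 2.81 to 3.64, 0.846 to 1.08 and 0.63 to 0.868 CPM in the ZEB1 samples. Of these 18 genes, Col3a1 and Pdgfrb were higher (log2 fold changes of 3.75 and 1.18) and Pdgfra, Csf1r and Kdr lower (-2.01, -1.82 and -2.51), and their part in the results below was not tested. Vector replicate 3 stood apart among tested genes with at least 1 CPM in either of the 2 samples compared. Between it and the other vector samples 5.79% and 6.39% of these genes differed at least 2-fold, with a small constant added to each level. The share was 0.068% between the other 2 vector samples and 0.112% to 0.215% between ZEB1 samples. Genes of chromosome Y summed to 101 to 130 CPM in the vector samples and to 1.2 to 1.5 CPM in the ZEB1 samples, a difference whose part in the results below was not tested. In bulk samples fewer cells that express a gene and less RNA per cell cannot be told apart.

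Glycosyltransferase genes changed in both directions, and most families held both higher and lower members. The largest rises were those of St8sia6 and Galnt13, a sialyltransferase and an O-glycan initiator, and the largest falls those of B3gnt7, Galnt9 and Gcnt3, a chain extender, an initiator and a branching enzyme. Of the 73 genes, 56 had enough counts to be tested, and 23 of them (41.1%) were higher and 13 (23.2%) lower in 393P_ZEB1 at an adjusted p below 0.05 (edgeR, Benjamini-Hochberg over 13892 genes). Over all tested genes 18.3% were higher and 19.3% lower, so the lower share of the family genes lay near the background and the higher share above it. The median log2 fold change of the 56 members was 0.29, against -0.02 for all tested genes. Changes of at least 2-fold were found for 11 of the higher and 6 of the lower members, and 6 of these rises began from a vector mean under 1 CPM. The samples of the 2 groups did not overlap for 29 members that were higher and 15 that were lower (51.8% and 26.8%), against 26.3% and 26.5% of all tested genes. With 3 samples against 3 an exact permutation test of a single gene cannot give a two-sided p below 0.1, so calls rest on the fit across all genes.

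The calls depended in part on single samples. Without vector replicate 3, 24 of 60 tested members were higher and 14 lower, against a background of 26.2% and 26.8%. In that fit B4galt3, B4galt7 and Mgat1 were gained and B3gnt5 lost. Without vector replicate 1 the counts were 15 and 8 of 59, against a background of 14.3% and 15.5%. Without ZEB1 replicate 3 they were 17 and 8 of 60, against 13.1% and 12.6%. Without ZEB1 replicate 1 they were 16 and 10, with 13.2% of all tested genes higher. With the DESeq2 size factors the counts were 23 and 13 (background 18.4% and 19.1%), with the DESeq2 Wald test 23 and 14 (20.3% and 21.3%), and with limma voom and sample weights 30 and 14 (28.6% and 29.5%). In the test against a fold of 1.5 they were 11 and 7 (7.78% and 8.05%), and at an adjusted p below 0.01 they were 14 and 8 (11.4% and 11.1%). In the 6 fits that each left out 1 sample, 22 of the 36 called members passed every time. The other 14 (B3galt4, B3gnt5, B4galt2, Fut8, Fut10, Galnt7, Galnt11, Galnt12, Gcnt2, Mgat2, Mgat4a, Mgat4b, St3gal1 and St3gal4) failed at least once, and the number of fits each passed is given with its values.

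**Figure D1:**
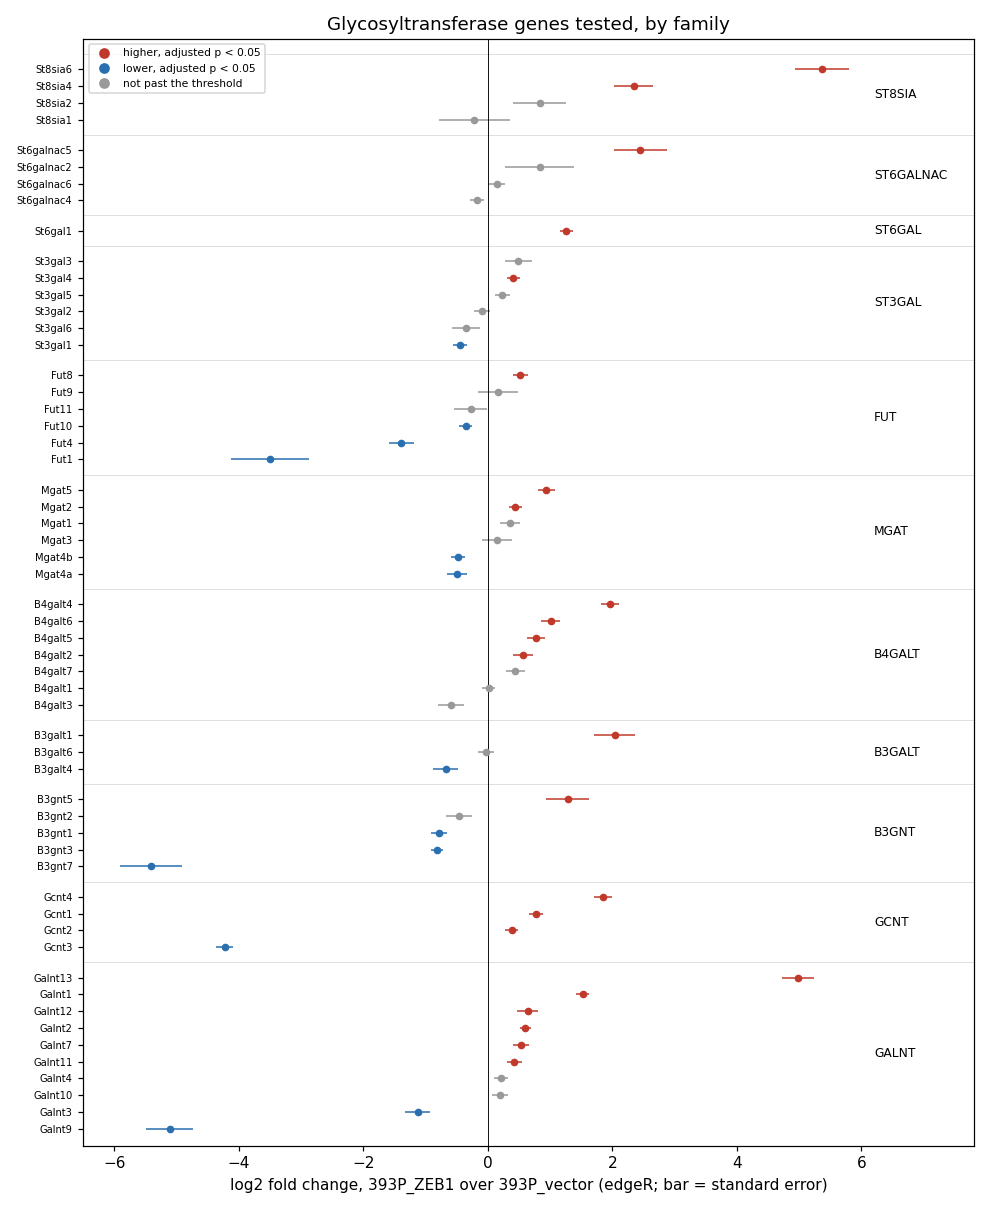
Log2 fold change of 393P_ZEB1 over 393P_vector (horizontal axis) for the 56 tested glycosyltransferase genes, grouped by family, with points as edgeR estimates, bars as standard errors, red for higher, blue for lower and grey for not past an adjusted p of 0.05. St8sia6 (5.37) and Galnt13 (4.98) lie farthest to the right, and B3gnt7 (-5.41), Galnt9 (-5.11) and Gcnt3 (-4.23) farthest to the left.

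Among the initiating enzymes, 6 of the 10 tested GALNT genes were higher and 2 lower, with a median log2 fold change of 0.47. Galnt1, a broadly expressed initiator and the most abundant member of the family per kilobase, was at 189.6, 177 and 175 CPM in the vector samples and at 573, 481 and 501 CPM in the ZEB1 samples. Its groups were far apart, with a log2 fold change of 1.52 (SE 0.11, adjusted p = 2.99e-05, edgeR). Galnt2, another broad initiator (chr8:124231394-124345723, GRCm38), stood at 138, 144 and 143 CPM with vector and at 218, 212 and 215 CPM with ZEB1. It rose by a log2 fold change of 0.60 (SE 0.09, adjusted p = 0.00131). Galnt13, known mainly from neural tissue (chr2:54436387-55117744), had 5, 5 and 11 counts in the vector libraries and 161, 203 and 210 in the ZEB1 libraries. These are levels of 0.0883, 0.085 and 0.132 CPM against 3.01, 3.65 and 3.44 CPM, a log2 fold change of 4.98 (SE 0.26, adjusted p = 5.96e-06). Galnt9, a brain-enriched initiator (chr5:110544345-110621382), moved the other way, at 2.08, 2.29 and 3.07 CPM with vector and at 3, 2 and 7 counts in the ZEB1 libraries (log2 fold change -5.11, SE 0.38, adjusted p = 3.76e-05).

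Galnt3, the initiator known for protecting the phosphate hormone FGF23 and typical of epithelia, fell from 40.5, 36.9 and 61.4 CPM to 21.5, 22.3 and 19.5 CPM (log2 fold change -1.13, SE 0.20, adjusted p = 0.00347). Its highest vector value was that of replicate 3, and without that sample the change was -0.87 (adjusted p = 3.7e-05). Galnt3 is shown here by its promoter because it is the lower member with the most copies of the E-box CACCTG on either strand, a motif that ZEB1 is known to bind. The RefSeq window of 250 bases before to 50 after its start (GRCm38.p6, minus strand) held 3 copies, in capitals below, which begin 170 and 57 bases before the start and 40 bases after it.
Galnt3, chr2:66124946-66124975: ggctctgggtacCAGGTGgccgcggcgcgg
Galnt3, chr2:66124833-66124862: cggcccgcggctCACCTGgagcgctcaggt
Galnt3, chr2:66124744-66124766: ccggcgggagctCACCTGggaga
A copy of these letters is a description of the window and not a measured binding site.

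The other tested GALNT genes had log2 fold changes of 0.19 to 0.64. Galnt7, which prefers peptides that already carry a sugar, was at 56.3, 57.3 and 73.1 CPM against 94.4, 85.6 and 88.7 CPM (log2 fold change 0.53, adjusted p = 0.0153, edgeR), and passed in 3 of the 6 fits with a sample left out. Galnt12 rose by 0.64 (SE 0.17, adjusted p = 0.019) from 6.21 to 8.75 CPM with vector to 10.5 to 12.4 CPM with ZEB1, and passed in 3 of those fits. Galnt11, an enzyme that modifies Notch1, rose by 0.42 (SE 0.12, adjusted p = 0.0282) and passed in 2. Galnt10 and Galnt4 did not pass, at log2 fold changes of 0.19 (adjusted p = 0.281) and 0.21 (adjusted p = 0.179), and Galnt4 lies wholly within the interval of Poc1b, so its reads are uncertain. Summed per kilobase of exon, a scale on which genes can be set side by side, the family stood at 139 ± 3.51 CPM per kb with vector and at 247 ± 12.3 CPM per kb with ZEB1 (SD, n = 3). Galnt1 made up 32.1% ± 1.94 of that sum with vector and 51.8% ± 2.21 with ZEB1, while the share of Galnt3 was 9.03% ± 2.34 and 2.33% ± 0.209.

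All 4 GCNT genes, which add the branching N-acetylglucosamine, passed the test, 3 upward and 1 downward. Gcnt3, the mucin-type branching enzyme of secretory epithelia (chr9:70031496-70038088), was at 84.4, 80.2 and 89.8 CPM in the vector samples and at 4.28, 5.11 and 4.14 CPM in the ZEB1 samples. The groups did not overlap and the log2 fold change of -4.23 (SE 0.14, adjusted p = 7.61e-07, edgeR) was measured well above the floor in all 6 libraries. Gcnt4, another core 2 branching enzyme (chr13:96924689-96950914), moved the other way, from 30.4, 32.0 and 40.8 CPM to 135, 124 and 114 CPM (log2 fold change 1.85, SE 0.14, adjusted p = 4.75e-05). Gcnt1, the core 2 enzyme of leukocytes and many other cells (chr19:17326141-17372844), rose from 142, 134 and 163 CPM to 262, 249 and 235 CPM (log2 fold change 0.77, SE 0.11, adjusted p = 0.0013).

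Gcnt2, which makes the I-branch of poly-N-acetyllactosamine, is named here because it completes the family. It was at 79.3, 78.0 and 86.5 CPM against 109, 106 and 102 CPM (log2 fold change 0.38, adjusted p = 0.0174, edgeR) and passed in 1 of the 6 fits with a sample left out. The summed level of the family was 68.6 ± 5.93 CPM per kb with vector and 92.4 ± 5.4 CPM per kb with ZEB1 (SD, n = 3), but its makeup was different. Gcnt3 accounted for 28.8% ± 0.94 of the sum with vector and for 1.14% ± 0.135 with ZEB1, Gcnt4 for 9.81% and 26.3%, Gcnt1 for 44.5% and 56.3%, and Gcnt2 for 16.9% and 16.2%.

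**Figure D2:**
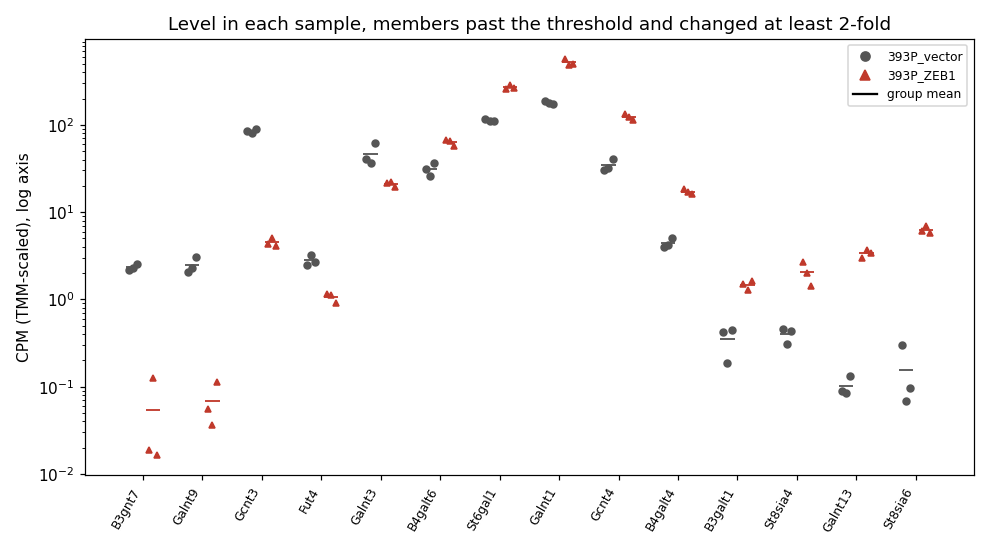
Level in CPM on a log axis in each of the 3 vector samples (grey circles) and 3 ZEB1 samples (red triangles), with group means as lines, for the 14 members that passed the test, changed at least 2-fold and reached a mean of 1 CPM in a group. Gcnt3 fell from between 80.2 and 89.8 CPM to between 4.14 and 5.11 CPM, whereas St8sia6 and Galnt13 began under 0.5 CPM in every vector sample.

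Of the 5 tested genes listed as B3GNT, most of which encode chain extenders, 3 were lower and 1 higher, with a median log2 fold change of -0.78. B3gnt3, which extends core 1 O-glycans and was the most abundant of them per kilobase, was at 94.3, 95.7 and 90.7 CPM in the vector samples and at 53.7, 49.6 and 55.7 CPM in the ZEB1 samples. It fell by 0.82 on the log2 scale (SE 0.10, adjusted p = 0.000451, edgeR), with no overlap. Its RefSeq window (minus strand) held 1 copy of the E-box, which begins 135 bases before the start.
B3gnt3, chr8:71701918-71701947: caggtagaaagaCAGGTGgggaagaacatg
B3gnt7, an extender linked to keratan sulfate (chr1:86303221-86307305), went from 124, 134 and 212 counts to 1, 7 and 1 counts. Its levels were 2.19, 2.28 and 2.55 CPM against 0.0187, 0.126 and 0.0164 CPM (log2 fold change -5.41, SE 0.50, adjusted p = 0.000129), a fold that rests on single counts in 2 of the ZEB1 libraries. The gene listed as B3gnt1, whose RefSeq symbol is now B4gat1 and whose product is a glucuronyltransferase of the dystroglycan glycan, was at 38.6, 38.6 and 48.2 CPM against 23.6, 23.9 and 25.6 CPM (log2 fold change -0.78, SE 0.13, adjusted p = 0.00238).

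B3gnt2, a main maker of poly-N-acetyllactosamine, overlapped between the groups at 45.8 to 81.2 CPM and 40.6 to 46.4 CPM (adjusted p = 0.119, edgeR). B3gnt5, which starts the lacto-series glycolipids, had 5 to 7 counts with vector and 11 to 14 with ZEB1 (log2 fold change 1.28, SE 0.35, adjusted p = 0.0229) and passed in 1 of the 6 fits with a sample left out. The family sum was 87.5 ± 8.23 CPM per kb with vector and 52.8 ± 0.861 CPM per kb with ZEB1 (SD, n = 3). The gene listed as B3gnt1 is included in the family's counts, median and sum, and held 23.5% of that sum with vector and 22.7% with ZEB1. Of the B3GALT genes, B3galt1, which builds type 1 chains (chr2:68117713-68122690), rose from 0.424, 0.187 and 0.445 CPM to 1.5, 1.3 and 1.62 CPM (log2 fold change 2.04, SE 0.33, adjusted p = 0.00213). B3galt4, which makes the ganglioside GM1, fell from 3.81 to 4.12 CPM with vector to 1.91 to 2.95 CPM with ZEB1 (log2 fold change -0.68, adjusted p = 0.03) and passed in 2 of the 6 fits. B3galt6, an enzyme of the proteoglycan linker and the most abundant B3GALT gene per kilobase, was at 7.31 to 8.2 CPM and 7.47 to 7.79 CPM (log2 fold change -0.03, SE 0.13, adjusted p = 0.879).

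Of the 7 B4GALT genes, which add galactose to N-acetylglucosamine, glucose or xylose, 4 were higher and none lower in the edgeR test, with a median log2 fold change of 0.56. B4galt4, which favours sulfated N-acetylglucosamine (chr16:38742264-38769045), was at 4.01, 4.18 and 5.04 CPM in the vector samples and at 18.5, 16.8 and 16.1 CPM in the ZEB1 samples (log2 fold change 1.96, SE 0.15, adjusted p = 3.92e-05). The lactosylceramide synthases B4galt5 and B4galt6, which open the path to the gangliosides, both rose. B4galt5 (chr2:167298445-167349178) went from 156, 155 and 111 CPM to 241, 243 and 236 CPM (log2 fold change 0.77, SE 0.14, adjusted p = 0.00467), with vector replicate 3 the lowest. B4galt6, on chromosome 18, went from 31.1, 26.1 and 36.4 CPM to 67.4, 64.9 and 56.7 CPM (log2 fold change 1.01, SE 0.15, adjusted p = 0.00138).

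B4galt1, the best known galactosyltransferase of glycoproteins, was at 108 to 122 CPM with vector and at 111 to 119 CPM with ZEB1, a log2 fold change of 0.01 (SE 0.10, adjusted p = 0.922, edgeR). B4galt2 rose by 0.56 (SE 0.16, adjusted p = 0.0305) and passed in 2 of the 6 fits with a sample left out. B4galt3 and B4galt7, the latter an enzyme of the proteoglycan linker, narrowly missed the threshold at -0.59 (adjusted p = 0.0573) and 0.44 (adjusted p = 0.0557). Both had separate groups, and without vector replicate 3, which held the highest value of B4galt3 and the lowest of B4galt7, they passed at -0.34 (adjusted p = 0.0357) and 0.29 (adjusted p = 0.0126). The share of B4galt5 in the family sum per kilobase was 27.3% with vector and 35.1% with ZEB1, that of B4galt4 1.57% and 4.59%, and that of B4galt3 17.2% and 8.58%.

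The MGAT genes set N-glycan branching, and 2 of the 6 tested were higher and 2 lower. Mgat5, which makes the branch that carries long poly-N-acetyllactosamine chains (chr1:127204986-127482972), was at 93.8, 87.1 and 68.1 CPM in the vector samples and at 154, 161 and 163 CPM in the ZEB1 samples. The log2 fold change was 0.94 (SE 0.13, adjusted p = 0.00121, edgeR) and the groups did not overlap. Mgat4a and Mgat4b, which add another branch, were lower. Mgat4b was at 58.0, 56.4 and 48.2 CPM against 39.9, 37.2 and 39.9 CPM (log2 fold change -0.48, SE 0.11, adjusted p = 0.0137) and passed in 3 of the 6 fits with a sample left out. Mgat4a was at 20.2, 18.6 and 27.0 CPM against 16.5, 15.2 and 14.8 CPM (log2 fold change -0.50, SE 0.16, adjusted p = 0.0452). It passed in 2 of those fits, and without vector replicate 3 its change was -0.32 (adjusted p = 0.0255).

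Mgat2, which completes the biantennary N-glycan, rose from 91.5, 96.5 and 107 CPM to 137, 132 and 130.1 CPM (log2 fold change 0.44, SE 0.10, adjusted p = 0.0117, edgeR) and passed in 5 of the 6 fits. Its 3′ UTR is shown because it holds a complement of the seed of miR-200b, miR-200c and miR-429 followed by A, with the matched letters and that A in capitals. The same letters also occurred in the 3′ UTRs of Fut9 and St3gal6, not past the threshold, and of B3galt2 and St8sia3, not tested. The seed, bases 2 to 8, is in capitals in the mature miRNA (RefSeq).
Mgat2, chr12:69186504-69186526, plus strand: gtcattttCAGTATTActgattc
mmu-miR-200b-3p: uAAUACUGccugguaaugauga
Mgat1, which makes hybrid and complex N-glycans possible, was not past the threshold at 0.36 (adjusted p = 0.106). Without vector replicate 3 it was at 0.21 (adjusted p = 0.0437). Mgat3, the bisecting enzyme, spread widely within the vector group, at 205, 179 and 99.0 CPM, and overlapped the ZEB1 samples at 189, 178 and 165 CPM. Of the summed MGAT level per kilobase, Mgat5 held 17.2% ± 0.622 with vector and 26.0% ± 0.971 with ZEB1 (SD, n = 3), and Mgat4b 14.5% and 8.13%.

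**Figure D3:**
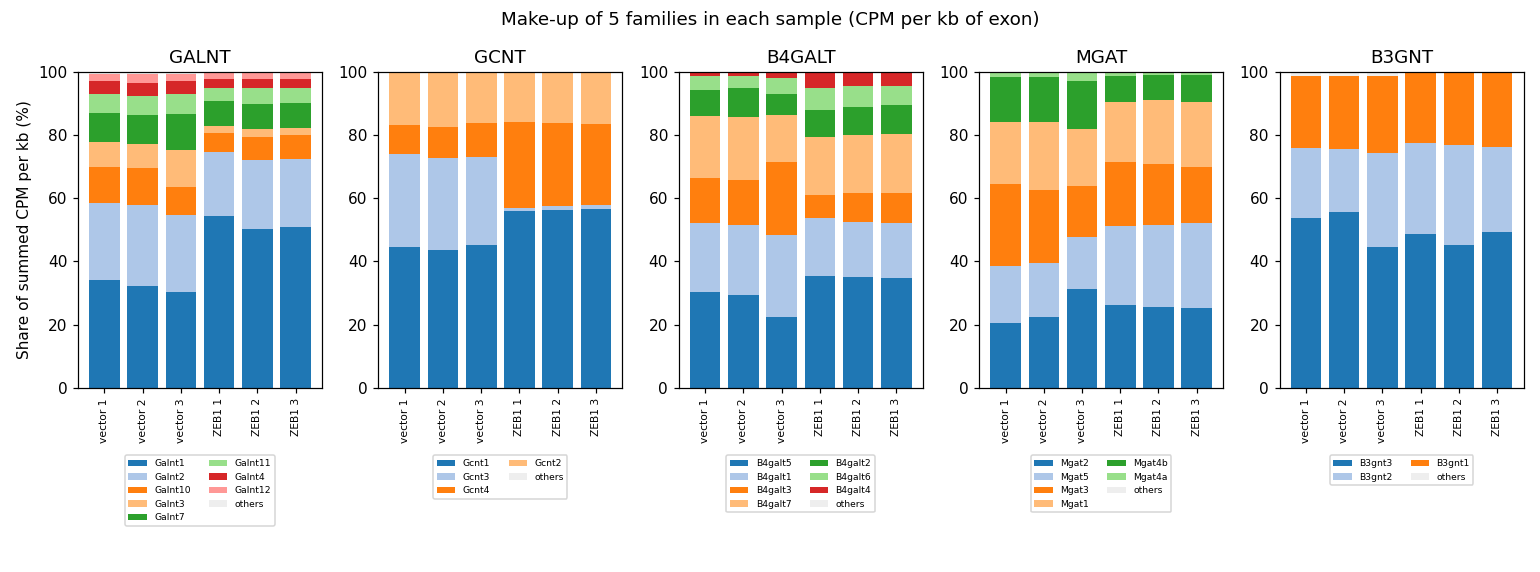
Share of each gene in the summed CPM per kb of its family (vertical axis, percent) in each of the 3 vector and 3 ZEB1 samples, for 5 families, with every bar adding to 100%. The share of Gcnt3 within GCNT shrinks from 28.8% to 1.14% and that of Galnt1 within GALNT grows from 32.1% to 51.8% between the group means. Vector replicate 3 differs from the other vector bars in B4GALT, MGAT and B3GNT, and in the share of Galnt3 within GALNT.

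Among 6 tested fucosyltransferases, 3 were lower and 1 higher. Fut8, which adds the core fucose of N-glycans (chr12:77238104-77475996) and held the largest share of the family per kilobase, was at 31.9, 28.4 and 33.5 CPM in the vector samples and at 48.6, 45.7 and 39.9 CPM in the ZEB1 samples (log2 fold change 0.52, SE 0.12, adjusted p = 0.0139, edgeR). It passed in 4 of the 6 fits with a sample left out. Both called enzymes of terminal fucose, Fut4 and Fut1, fell. Fut4, which makes Lewis x (chr9:14748459-14752122), went from 2.46, 3.26 and 2.7 CPM to 1.16, 1.13 and 0.917 CPM (log2 fold change -1.39, SE 0.20, adjusted p = 0.00135). Fut1, which makes the H antigen, had 43, 21 and 45 counts with vector and 0, 4 and 4 with ZEB1 (log2 fold change -3.50, SE 0.63, adjusted p = 0.00364), so both groups lay under 1 CPM. The RefSeq windows of both genes, on the minus strand for Fut4 and the plus strand for Fut1, held 1 copy of the E-box each, which begin 111 and 142 bases before the start.
Fut4, chr9:14752216-14752245: aggccacgacccCAGGTGaggcgccagcgg
Fut1, chr7:45617452-45617481: cagcgccccatcCACCTGggcggaggagag
Fut8, which rose, also held the motif, once in each of 2 windows on the plus strand, 91 and 68 bases before the respective start.
Fut8, chr12:77388761-77388790: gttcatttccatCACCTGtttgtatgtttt
Fut8, chr12:77410061-77410090: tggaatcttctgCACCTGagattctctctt
Fut10 fell by 0.36 on the log2 scale (SE 0.11, adjusted p = 0.0388) and passed in 1 of the 6 fits. The summed FUT level overlapped between the groups, while the share of Fut8 in it was 42.4% with vector and 58.0% with ZEB1.

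The sialyltransferase with the highest ZEB1 level per kilobase among those that rose was St6gal1. St6gal1, which caps N-glycans with alpha-2,6 sialic acid (chr16:23224740-23360350), was at 116, 112 and 111 CPM in the vector samples and at 260.1, 287 and 265 CPM in the ZEB1 samples. Its log2 fold change was 1.26 (SE 0.10, adjusted p = 3.65e-05, edgeR), and its relative St6gal2 had too few counts to be tested. Of the 6 ST3GAL genes, which make alpha-2,3 linkages, 1 was higher, 1 lower and 4 not past the threshold, and their summed level overlapped between the groups. St3gal4, which acts on N-acetyllactosamine ends, rose from 38.7, 41.2 and 43.8 CPM to 52.3, 60.6 and 51.5 CPM (log2 fold change 0.41, SE 0.11, adjusted p = 0.025) and passed in 1 of the 6 fits with a sample left out. St3gal1, which caps core 1 O-glycans, fell from 24.1, 22.9 and 22.0 CPM to 17.3, 17.5 and 15.6 CPM (log2 fold change -0.45, SE 0.11, adjusted p = 0.0171) and passed in 2. The remaining St3gal2, St3gal3, St3gal5 and St3gal6 had log2 fold changes of -0.35 to 0.49 (adjusted p = 0.111 to 0.586).

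The enzymes that add sialic acid to sialic acid or to N-acetylgalactosamine included some of the largest folds and some of the lowest levels. St8sia6, which makes disialic acid (chr2:13654936-13793520), had 17, 4 and 8 counts in the vector libraries and 322, 384 and 355 in the ZEB1 libraries. These are 0.3, 0.068 and 0.0963 CPM against 6.02, 6.91 and 5.81 CPM, a log2 fold change of 5.37 (SE 0.43, adjusted p = 5.59e-05, edgeR). St8sia4, a polysialic acid synthase of the neural cell adhesion molecule (chr1:95587682-95667594), was at 0.459, 0.306 and 0.433 CPM against 2.67, 2.02 and 1.42 CPM (log2 fold change 2.34, SE 0.31, adjusted p = 0.000783). Both genes began under 0.5 CPM in all 3 vector samples and their groups did not overlap. Their 3′ UTRs in the longest coding transcript, both on the minus strand, each held the 7-letter complement CAGTATT of the miR-200b seed printed above. The St8sia6 site lies outside the counted interval of that gene. The St8sia4 UTR of 8952 bases is longer than the counted exon length of 5672 bases. Both UTRs are thus those of annotated transcripts that differ from the counted ones. The same letters occurred at 2 places in the 3′ UTR of St8sia1 and at 1 in that of St8sia2, neither of which passed the test.
St8sia6, chr2:13652738-13652760: ggtgtgttCAGTATTtcctgttt
St8sia4, chr1:95624378-95624400: tcagatttCAGTATTtaaacttt
St6galnac5, which makes the ganglioside GD1alpha, had 2, 3 and 5 counts with vector and 15, 20 and 13 with ZEB1 (log2 fold change 2.45, SE 0.42, adjusted p = 0.0027), below 1 CPM in every sample. St6galnac4 and St6galnac6, the more abundant relatives, were not past the threshold at -0.18 (adjusted p = 0.234) and 0.14 (adjusted p = 0.444). Their gene intervals overlap by 766 bases on 1 strand, so reads there could be assigned to either. St8sia1, St8sia2 and St6galnac2 were also not past the threshold.

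The summed ST8SIA level was 0.213 ± 0.0824 CPM per kb with vector and 2.45 ± 0.219 CPM per kb with ZEB1 (SD, n = 3), and the ST6GAL sum was 23.4 ± 0.628 and 56.1 ± 3.04 CPM per kb. Within ST8SIA the share of St8sia6 was 21.6% ± 11.1 and 81.1% ± 4.07, and that of St8sia4 35.2% and 14.6%. The wide vector spread of St8sia6 goes with the 17 counts in vector replicate 1 against 4 and 8 in the other 2 libraries. The 17 members that were not tested had at most 16 counts in any library and at most 0.28 CPM. They are B3galt2, B3galt5, B3gnt4, B3gnt6, B3gnt8, Fut2, Fut7, Galnt5, Galnt6, Galnt14, Mgat4c, Mgat5b, St6gal2, St6galnac1, St6galnac3, St8sia3 and St8sia5, and no difference was detectable in them at this depth.

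The genes that precede and supply these enzymes were read from lists of their pathways. The counts that follow stand beside 18.3% of all tested genes higher and 19.3% lower. Of 22 tested genes of the oligosaccharyltransferase and N-glycan trimming, 2 were higher and 2 lower, with Man1c1, a Golgi mannosidase, at 1.15, 0.816 and 0.879 CPM against 6.07, 6.23 and 6.91 CPM (log2 fold change 2.76, SE 0.19, adjusted p = 2.52e-05, edgeR). Of 21 tested genes of nucleotide sugar synthesis, 2 were higher and 4 lower, none by 2-fold, and of 7 Golgi nucleotide sugar transporters 2 were higher and 1 lower. The median log2 fold changes of these lists were -0.13, 0.03 and 0.14. Of 14 tested further Golgi glycosyltransferases, 3 were higher and 1 lower, with a median of 0.09. B4galnt3, which makes the LacdiNAc unit, fell from 42.8, 43.5 and 25.8 CPM to 0.355, 0.666 and 0.524 CPM (log2 fold change -6.17, SE 0.32, adjusted p = 6.21e-06). B3galnt1, the globoside synthase, rose from 1.38, 0.85 and 2.47 CPM to 17.7, 21.6 and 18.6 CPM (log2 fold change 3.61, SE 0.36, adjusted p = 0.000186). The acceptor mucin Muc1 fell from 4.13, 5.13 and 7.43 CPM to 0.692, 0.792 and 0.884 CPM (log2 fold change -2.81, SE 0.27, adjusted p = 0.000142), and Muc4, the other tested mucin, was also lower, at a log2 fold change of -1.68 (SE 0.49, adjusted p = 0.0313) and under 0.3 CPM in every sample. Of 3 tested sialidases 2 were lower, among them Neu2 with a log2 fold change of -2.12 (SE 0.33, adjusted p = 0.00199).

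The position of the members was compared with the chromosome-wide differences between the groups. The median log2 fold change of all tested genes was 0.636 on chromosome 18, 0.266 on chromosome 11 and 0.246 on chromosome 16, against -0.429 on chromosome 17, -0.356 on chromosome 6 and -0.334 on chromosome 15. Galnt1 and B4galt6 lie on chromosome 18 and St6gal1, B4galt4 and B3gnt5 on chromosome 16, and how much of their rise belongs to the chromosome was not tested. Of the lower members, B3galt4 lies on chromosome 17 and St3gal1 on chromosome 15. How much of their fall belongs to the chromosome was not tested either. Relative to its chromosome's median Galnt1 was higher by 0.88, B4galt6 by 0.38, St6gal1 by 1.01 and B4galt4 by 1.71 on the log2 scale. On the same scale B3galt4, at a log2 fold change of -0.68, stood at -0.25 from its median. St3gal1, at -0.45, stood at -0.12, and the lower member Mgat4b on chromosome 11, at -0.48, stood at -0.74. On chromosomes 11, 16 and 18 together 5 of 11 tested members were higher (45.5%) and 1 lower, where 36.4% of all tested genes were higher and 9.68% lower. On the other chromosomes 18 of 45 were higher (40.0%) and 12 lower, where 15.3% and 20.9% of all tested genes were. Galnt13, St8sia6, St8sia4, Gcnt4, Gcnt3 and Galnt9 lie on those other chromosomes.

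**Figure D4:**
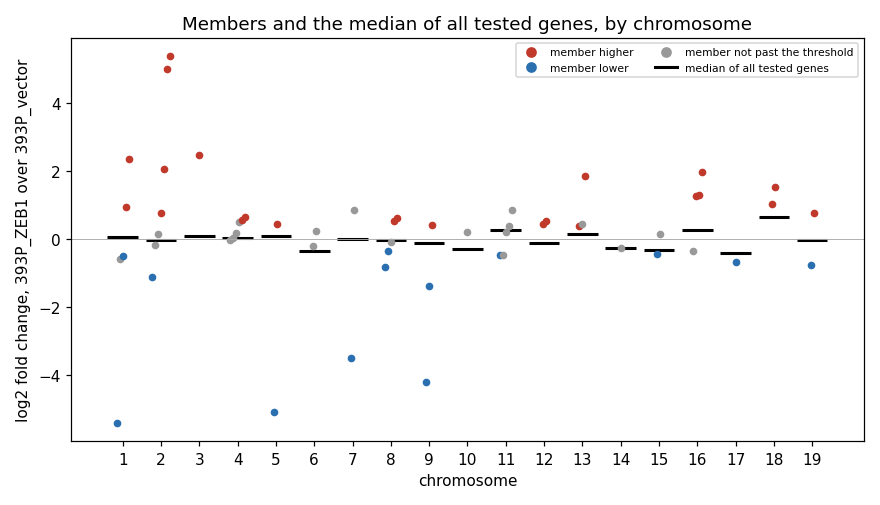
Log2 fold change (vertical axis) of each tested member by autosome (horizontal axis), with colours as in the plot by family and black lines for the median of all tested genes on that chromosome. Chromosome 18, with a median of 0.636, carries 2 higher members, whereas members spread widely on chromosomes without such a shift, such as chromosomes 1 and 2.

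Sequence matches were counted over the members and over all genes. The E-box CACCTG, searched on both strands, was in at least 1 RefSeq window of 10 of the 54 members that have one (18.5%), against 21.1% of the tested genes that have one. Counted by window it was in 12 of the 78 windows of members (15.4%), against 20.2% of all 32851 windows. By gene it was in 4 of 9 lower members (Galnt3, B3gnt3, Fut1 and Fut4), in 3 of 18 higher members (Fut8, Gcnt1 and B3gnt5), in 1 of 15 members not past the threshold (St6galnac6) and in 2 of 12 members not tested (Galnt5 and Galnt6). A complement of the seed of miR-200b, miR-200c and miR-429 (CAGTATT) or of miR-200a and miR-141 (CAGTGTT), searched on the transcript strand of the 3′ UTR, was in 10 of 23 higher members (43.5%), 2 of 13 lower members (15.4%) and 10 of 20 members not past the threshold. Over all tested genes with a 3′ UTR the share was 30.5%. The first complement alone was in 26.1% of higher members, none of the 13 lower members and 40.0% of members not past the threshold, against 15.8% of all tested genes. The median UTR length was 2545 bases in higher members, 2353 in members not past the threshold, 1404 in lower members and 1181 in all tested genes, and the part of length in these counts was not tested.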

How the data were processed

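The authors sequenced RNA of 3 393P_vector and 3 393P_ZEB1 samples and deposited, for each sample, the read count, the length and the RPKM of every gene. The aligner, the counting program and the use of strand in counting are not given in the sources used here. The RPKM values deposited by the authors were used only to check the columns, and all results come from the deposited counts (54442450 to 79158012 per sample). Coordinates are those of the files, build GRCm38.

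Genes with sufficient counts (filterByExpr of edgeR, minimum count 10) were kept, 13892 of 24214. Libraries were scaled by TMM, and the groups were compared by the edgeR quasi-likelihood test with Benjamini-Hochberg adjustment over all tested genes and a threshold of 0.05. The fit was first run on simulated data with the same spread in every sample. Those data held no sample that stood apart as vector replicate 3 does, so the run cannot judge the calls made here. CPM values are TMM-scaled, and CPM per kb divides them by the deposited gene length. Fold changes are those of the fit. The members named with full values were those past the threshold with a mean of at least 1 CPM in a group, largest absolute log2 fold change first, up to 30, and the most abundant member of each family per kilobase; Gcnt2, Fut10, Fut1, St6galnac5, B3gnt5 and members not past the threshold were named after their values were seen. Genes of the pathway lists were named if past the threshold and changed at least 2-fold, at most 3 a list, and the cell type markers named were chosen after their values were seen. Members, lists and tests were chosen with earlier results of these data known. The sequence motifs were added later.

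Alternatives were DESeq2 size factors, the DESeq2 Wald test, no count filter, at least 10 counts in every sample, a replicate block, each sample left out, a test against a fold of 1.5, limma voom with sample weights, and a threshold of 0.01. Versions were R 4.3.3, edgeR 4.0.16, DESeq2 1.42.0, limma 3.58.1, Python 3.11.15, pandas 2.3.3, NumPy 2.4.6 and matplotlib 3.10.9. Promoters and miRNAs came from the RefSeq tables (GRCm38.p6) and 3′ UTRs from the longest coding transcript of GENCODE M21. That transcript can differ from those behind the deposited counts.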

Additional observations from a re-analysis of the deposited data

How the results depend on the processing

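The counts of 23 higher and 13 lower members came to 23 and 13 with DESeq2 size factors, 23 and 14 with the DESeq2 Wald test, 22 and 11 without a count filter (73 members tested, 10.7% and 11.6% of all tested genes called), 19 and 10 with at least 10 counts in every sample (46 tested, 17.5% and 17.6%), and 30 and 14 with limma voom and sample weights. They were 11 and 7 in the test against a fold of 1.5 and 14 and 8 at an adjusted p below 0.01, both of which ask for more by construction. Over all tested genes 5218 passed, against 2199 with the fold of 1.5, 3129 at 0.01 and 8071 with limma voom. With 1 sample left out the higher members numbered 15 to 24, while 13.1% to 26.2% of all tested genes were higher. The lower members numbered 8 to 14, while 12.6% to 26.8% of all tested genes were lower. All genes past the threshold numbered 3645 to 7476. The fits without vector replicate 1 (15 and 8) and without ZEB1 replicate 3 (17 and 8) moved a member count by over 1.5 times, and the cause was not tested. No member past the threshold changed sign in any of these settings. B3galt6, not past the threshold, was at -0.03 with all samples and at -0.06 to 0.01 with 1 sample left out, the last without vector replicate 3. Of 425 values of single named members under the alternatives, 365 kept direction and side of the threshold and 58 lost the call, all of them in the same direction.

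The groups share replicate numbers. The deviations of same-numbered samples from their group means correlated at 0.279, -0.205 and -0.0377, and those of samples with unequal numbers at -0.182 to 0.222. The highest value was that of the samples numbered 1. Deviations from a mean of 3 samples depend on one another, so these values cannot decide whether equal numbers mark a pairing. With the replicate block 19 members were higher and 11 lower (7 calls lost and 1 gained), against 15.7% and 16.2% of all tested genes. In all 4436 genes passed. Depth limited the 17 members with at most 16 counts in any library.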
